A study of Canis lupus familiaris with 6 samples.

Results

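MicroRNAs were compared between Sca1+ and Sca1- cells of canine mammary cancer lines on the 4 arrays whose sorted fraction is not in dispute. The members were the 39 miRNAs, of 289 on the array, that the scanner software flagged as detected on the CMT-U27 Sca1+ array. That array was dim, so the miRNAs were chosen by their own signal there and were ranked within each array. Detection on the CMT-U27 Sca1+ array is therefore the selection and not a finding, and the levels on that array are given as a description.

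The series holds 6 samples, 1 Sca1+ and 1 Sca1- fraction from each of 3 lines (CMT-U27, CMT-U309, P114), sorted by flow cytometry after staining for stem cell antigen 1 and hybridised as total RNA to a 1-colour Agilent canine miRNA array. Per the labels, Sca1+ stands for cancer stem cells and Sca1- for their control, and all lines grew in the same serum-containing medium. The 2 arrays used here as Sca1+ were CMT-U27 Sca1+ and CMT-U309 Sca1+, and the 2 used as Sca1- were CMT-U309 Sca1- and P114 Sca1-, each named by its scanner file. The deposited value table gives the same fraction for these 4 arrays but assigns the CMT-U309 Sca1+ array to P114 Sca1+ and the CMT-U309 Sca1- array to CMT-U27 Sca1-. The P114 samples are described as cells kept with macrophages and the others as mono-culture. By scanner file P114 Sca1- is the only such array here, while by value table the CMT-U309 Sca1+ array is another, so line, culture and fraction differ together in part. Both Sca1+ arrays lay in row 1 of the slide and both Sca1- arrays in row 2, so fraction and slide row cannot be told apart. Each sample is 1 sorted fraction of a cell line, and nothing in the labels says how cultures were kept apart, so any p-value reflects the spread of these arrays alone, which may be technical.

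A miRNA is a short RNA that guides Argonaute proteins to messenger RNAs, mostly through the seed near its 5′ end, and lowers their translation and stability. Members of a family share the seed and often arise from several genomic clusters transcribed together. In mammary tissue, miR-200 family members are known for keeping epithelial identity, let-7 for its rise with differentiation and its low level in stem-like breast cancer cells, and miR-21 for its abundance in carcinomas.

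The array reads each miRNA with short designed capture probes, and the 39 miRNAs had 81 of them. The longest probe is shown for some of the miRNAs compared below, as listed in the scanner files. Capitals mark bases that differ after alignment from the first probe of the set, and for miR-27b from the miR-27a probe. The single miRNAs of the last set were not aligned. Coordinates are the probe's mapped place on the dog build canFam2 as the files give it. The files give no strand, and no gene annotation of that build was used here. In the let-7 set, which shows how little separates the 5 detected members, each probe differs from that of let-7a in 1 or 2 bases.
let-7a: aactatacaacctactacct
let-7b: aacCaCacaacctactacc
let-7c: aacCatacaacctactacc
let-7f: aactatacaaTctactacctc
let-7g: aactGtacaaActactacctc

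The miR-23 and miR-27 probes are shown because all 4 miRNAs ranked lower on the Sca1+ arrays. The probes of miR-23a (chr20:51621787-51621802) and miR-27a (chr20:51622018-51622031) map side by side, as do those of miR-23b (chr1:74735012-74735027) and miR-27b (chr1:74734784-74734800).
miR-23a: aaatccctggcaatgtg
miR-23b: Taatccctggcaatgtg
miR-27a: cggaacttagccact
miR-27b: gcAgaacttagccactgt

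The next set holds miR-17 paralogues. The probes of miR-106b (chr6:12505315-12505330), miR-93 (chr6:12505540-12505554) and miR-25 (chr6:12505787-12505803) lie in 1 cluster, and that of miR-106a on another chromosome (chrX:107958229-107958244). The miR-25 probe belongs to a different seed family and was not aligned.
miR-106a: ctacctgcactgtaagc
miR-20a: ctacctgcactAtaagcac
miR-93: ctacctgcacGAACag
miR-106b: aTctgcactgtCagcac
miR-25: tcagaccgagacaagtgc

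The pair miR-221 (chrX:39471499-39471514) and miR-222 (chrX:39472138-39472150) is shown because both ranked lower on the Sca1+ arrays.
miR-221: aaacccagcagacaatg
miR-222: acccagTagCcaGA

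The last set shows single miRNAs on which the comparison turns: the brightest miRNA, miR-21 (chr9:37662768-37662786), then miR-494 (chr8:72304173-72304186), miR-489 (chr14:21927543-21927556), miR-371 (chr1:106488141-106488155) and miR-223 (chrX:53762383-53762402).
miR-21: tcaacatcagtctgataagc
miR-494: gaggtttcccgtgta
miR-489: gccgccgtatatgtg
miR-371: aaagtgccgccatttt
miR-223: ggggtatttgacaaactgaca

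Signal is the total gene signal, a background-subtracted intensity per miRNA in arbitrary units, with the error that the scanner software reports for it. The CMT-U27 Sca1+ array detected 39 miRNAs with a summed signal of 3228, while CMT-U309 Sca1+, CMT-U309 Sca1- and P114 Sca1- detected 111, 91 and 89 with sums of 69282, 70794 and 70162. No spot was saturated. On the other 3 arrays the 39 miRNAs held 80.5%, 91.7% and 92.01% of the detected signal in the order above. Of the mammary epithelial markers listed, 0 of 7 were detected on CMT-U27 Sca1+ and on P114 Sca1-, 5 of 7 on CMT-U309 Sca1+ (summed signal 5129) and 1 of 7 on CMT-U309 Sca1- (28.9), and miR-200a and miR-200b were detected on none. Of the 4 mesenchymal markers, miR-199 alone was detected, at 245 and 193 on the Sca1- arrays and not on the Sca1+ arrays. Leukocyte markers were detected for 1, 3, 2 and 3 of 6 (summed signal 65.7, 948, 219 and 182). Of these, miR-223 was detected on all 4 arrays. miR-146a was detected on CMT-U309 Sca1+ alone, at 690, and miR-146b on P114 Sca1- alone, at 32.7. miR-155 read 189 on CMT-U309 Sca1+, 139 on CMT-U309 Sca1- and 78.0 on P114 Sca1-. The blood-cell miRNAs miR-142 and miR-150 were detected on no array. Endothelial, muscle and liver markers were on none, 1 erythroid marker reached 18.1 on CMT-U309 Sca1- and 1 nerve marker 51.3 on CMT-U309 Sca1+. The part of these marker differences in the results below was not tested, and in sorted bulk samples a smaller share of some cells cannot be told apart from less miRNA per cell.

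All 39 miRNAs together spanned signals from 10.4 to 646 on the CMT-U27 Sca1+ array, 9 of them above 100 and 16 below 30. Signal over scanner error ran from 3.005 for miR-26a to 14.3, and the median relative error was 13.6% against 7.67% for the same miRNAs on CMT-U309 Sca1+. The dimmest members inside the detection rule were miR-103, miR-30d and miR-26a, with a total gene signal of 10.97, 10.8 and 10.4 and a median spot of the brightest probe of 9.20, 8.61 and 7.41. Just outside lay miR-331, miR-483 and miR-181d, at 7.30, 7.22 and 7.02 by that median spot. A further 41 miRNAs were detected on the other 3 arrays and not here. The brightest of these was miR-30b, at 673 on CMT-U309 Sca1+.

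Of the 39, 37 were detected on all 4 arrays. The mean signal on the other 3 arrays over that on CMT-U27 Sca1+ had a median of 15.4 over these 37, with the lowest ratio, 1.12, for miR-223 and the highest, 62.4, for miR-27b. This ratio is not a measure of the fraction, since CMT-U309 Sca1+ is among the bright arrays. Across the 37 miRNAs the log2 of CMT-U27 Sca1+ over the others had a Spearman correlation of 0.18 with probe GC content, 0.07 with probe length and -0.49 with the mean signal on the other 3 arrays, whose values enter both sides of the last relation. The miRNAs share these arrays and are not replicates.

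**Figure D1:**
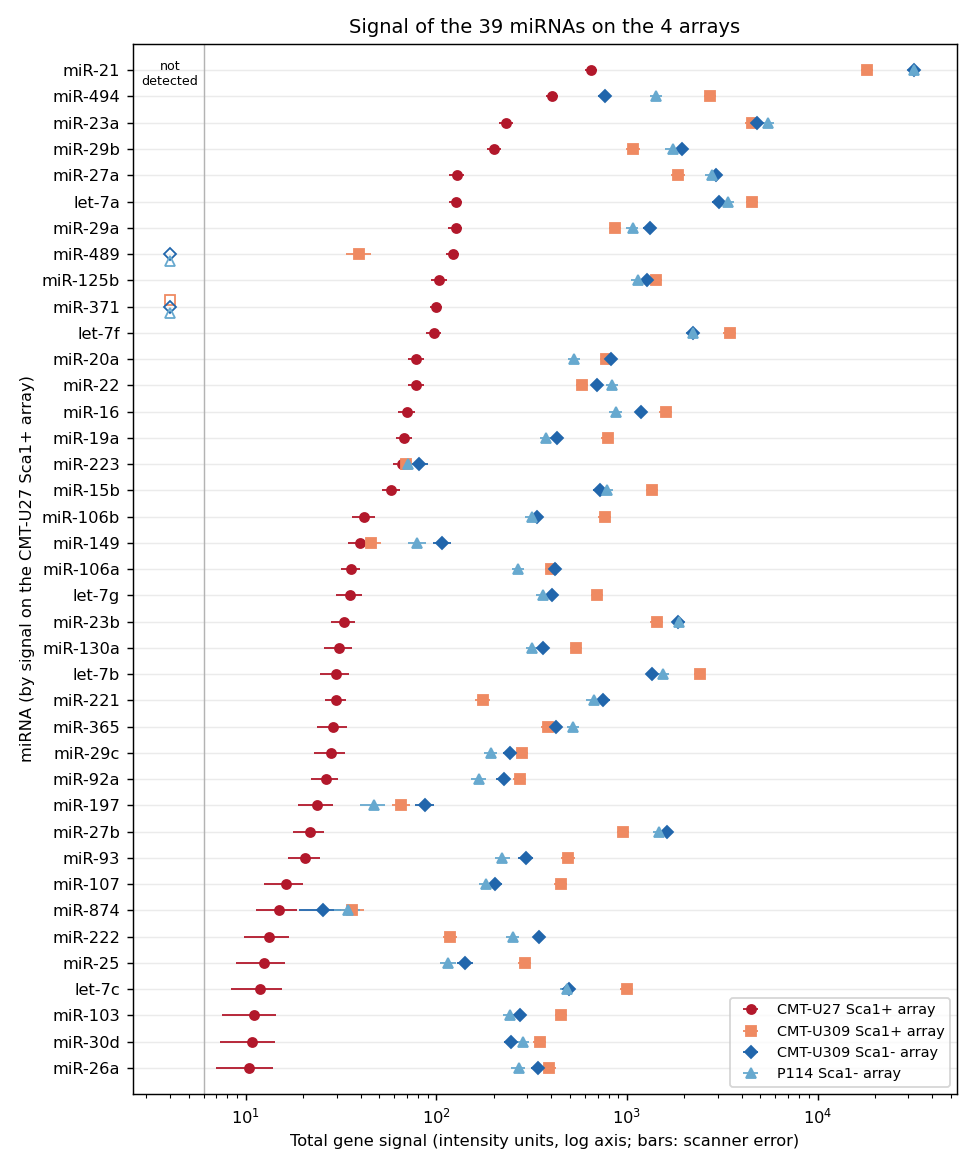
Total gene signal (intensity units, log axis) of the 39 miRNAs on the 4 arrays, with bars for the scanner error and open symbols for miRNAs not detected. Red circles of CMT-U27 Sca1+ lie left of the other arrays for most miRNAs, and miR-223 sits between 65.7 and 80.9 on all 4.

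Arrays of the same fraction were not the most alike on the Sca1+ side. To set arrays on 1 scale, log2 values were centred on the 75th percentile of 42 probes that were well above background on all 4 arrays, which belong to 26 miRNAs, all of them members. Over the 37 miRNAs the median absolute log2 difference was 0.22 between the 2 Sca1- arrays and 0.79 between the 2 Sca1+ arrays. Between fractions it was 0.70 and 0.80 for CMT-U27 Sca1+ and 0.57 and 0.62 for CMT-U309 Sca1+. The rank correlation of signals was 0.98 within Sca1- and 0.66 within Sca1+, and 0.89 and 0.90 between CMT-U309 Sca1+ and the Sca1- arrays. Differences between fractions thus have to be read against a spread within Sca1+ that is as large.

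No miRNA passed the test of the fraction. With the empirical Bayes test of limma on the scaled log2 values, 0 of 91 miRNAs detected on at least 2 of the 4 arrays had a Benjamini-Hochberg adjusted p under 0.05 (0% called), with n = 2 arrays per fraction. Of the 91, 7 had an unadjusted p under 0.05, 1 of them a member, and the smallest limma adjusted p was 0.201 over all and 0.497 over the 38 members tested. On percentile ranks within each array limma also called 0 of 91 (0%), with 12 below 0.05 unadjusted, 3 of them members, and a smallest adjusted p of 0.235. The count was not stable. With a normexp background correction limma called 56 of 91, of which 55 were higher in Sca1+ (12 of the 38 members higher, 1 lower). That correction adds an offset of 50 to every spot, and most of those called higher were not detected on CMT-U27 Sca1+. The part of the offset in these calls was not tested. Leaving out a Sca1+ array leaves a lone one, assumed to vary like the Sca1- arrays, so only median log2 differences are given. Without CMT-U309 Sca1+ the median was -0.52 over 82 tested miRNAs and 0.45 over 37 members. The non-members were undetected on the lone Sca1+ array by construction. Without CMT-U27 Sca1+ the median was 0.18 over 90 tested miRNAs and -0.02 over 37 members.

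The median log2 difference, Sca1+ minus Sca1-, was -0.18 over the 91 miRNAs and 0.25 over the 38 members, of which 23 lay above 0 and 15 below. The scaling sets this level: across scalings the median over all tested ran from -2.06 with no scaling to 0.08 with scaling over all probes. The direction of members that did not overlap on ranks or on log2 values was therefore also taken relative to the median member under each alternative that held them. No scaling, scaling over all probes and a block for the value-table line cannot move this relative value. The filters move only the median it is taken from. Counts of alternatives with the same direction are thus not counts of separate checks. On the scaled log2 values 13 of 38 members lay above in both Sca1+ arrays (22% of the 91) and 7 below (24.2% of the 91). On percentile ranks 11 lay above (27.5% of the 91) and 6 below (19.8%). The other 53 miRNAs tested were undetected on CMT-U27 Sca1+ by construction, so these counts describe the members and support nothing further.

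**Figure D2:**
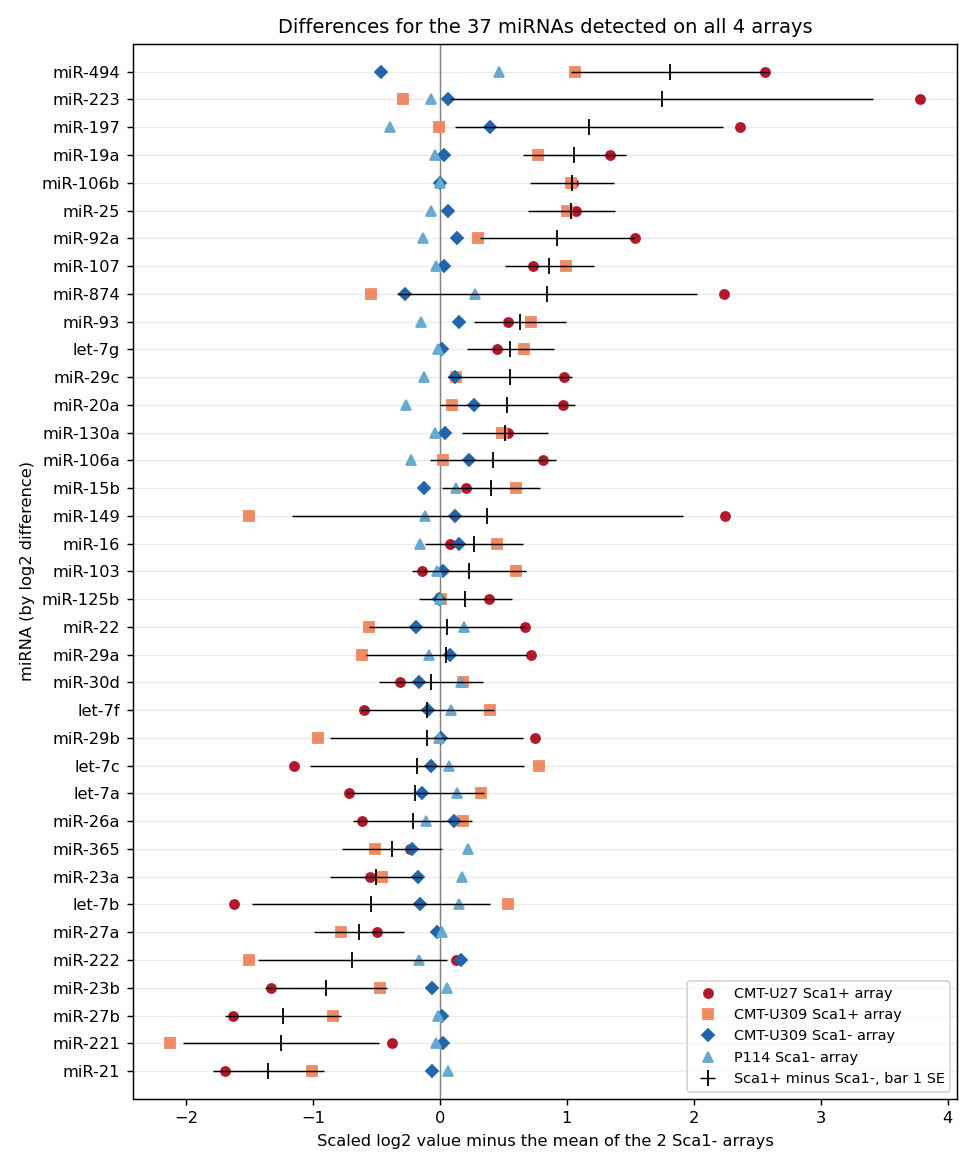
Scaled log2 value of each of the 37 miRNAs detected on all 4 arrays, minus the mean of the 2 Sca1- arrays, with the Sca1+ minus Sca1- difference as a vertical tick and 1 SE of the limma fit as a bar. Differences run from -1.35 for miR-21 to 1.81 for miR-494, and the 2 Sca1+ arrays stand wide apart for miR-223 and miR-149.

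Among the 39, ranks by signal (1 is the brightest) did not overlap between fractions for 14 miRNAs. Of these, 6 ranked higher on both Sca1+ arrays (miR-489, miR-223, miR-494, miR-106b, miR-19a and miR-125b) and 8 ranked lower (miR-27b, miR-221, miR-23b, miR-222, miR-26a, miR-365, miR-27a and miR-23a). The other 25 overlapped. On percentile ranks over all 91 tested miRNAs, 27.5% lay above and 19.8% below, and the 6 and 8 of 39 do not stand clear of these shares. The 14 are described for their values and not as results about the fraction.

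**Figure D3:**
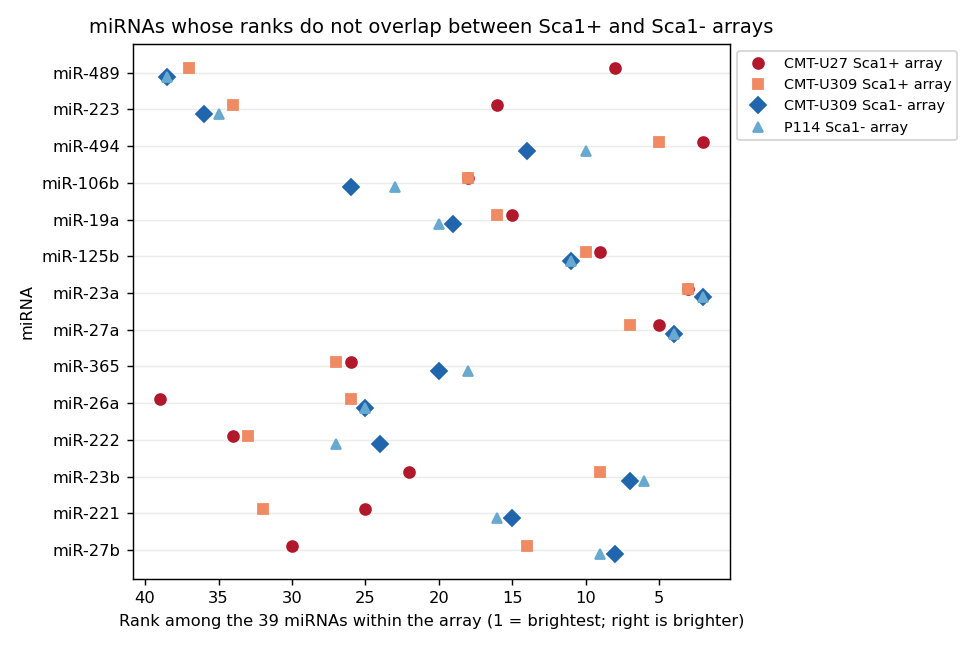
Rank among the 39 miRNAs (1 is brightest, right is brighter) for the 14 miRNAs whose ranks do not overlap between the 2 Sca1+ and the 2 Sca1- arrays. miR-494 ranks 2 and 5 on Sca1+ arrays against 14 and 10, and miR-221 ranks 25 and 32 against 15 and 16.

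miR-21, a growth-promoting miRNA that represses tumour suppressors such as PDCD4, was the brightest on all 4 arrays. Its signal was 646 ± 46.9 (scanner error) on CMT-U27 Sca1+ and 18172 ± 1317 on CMT-U309 Sca1+, against 32139 ± 2328 and 31945 ± 2324 on the Sca1- arrays. It held 20.02% and 32.6% of the members' summed signal on the Sca1+ arrays and 49.5% on each Sca1- array. The mean share was 26.3% ± 8.87 (SD, n = 2) against 49.5% ± 0.00565 (SD, n = 2), a difference of -23.2 percentage points with an exact two-sided permutation p of 0.333, the smallest that 2 against 2 arrays can give. The fractions did not overlap. On the scaled log2 values the difference was -1.35 (SE 0.44, limma adjusted p 0.497). Quantile scaling gives the brightest miRNA of every array the same value and so has no difference to show for miR-21.

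miR-494, which belongs to the imprinted cluster that also holds Dlk1 and Meg3 in mammals, was the member with the largest log2 difference among those detected on all 4 arrays. Its signal was 406 on CMT-U27 Sca1+ and 2723 on CMT-U309 Sca1+ against 764 and 1423 on the Sca1- arrays, and its ranks were 2 and 5 against 14 and 10. The log2 difference was 1.81 (SE 0.78, limma adjusted p 0.567). Relative to the median member it stayed above 0 in 18 of 18 alternatives, some of which could not move it. Of the 34 listed miRNAs of that cluster on the array, miR-494 was the sole member, and 3 were tested with 0 called. On the arrays left out it read 513 on CMT-U27 Sca1- and 57.7 on P114 Sca1+.

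miR-489 and miR-371 were the members not detected on every array. miR-489, known for keeping muscle stem cells quiescent, had a signal of 122 ± 9.88 (scanner error) on CMT-U27 Sca1+ and 39.2 ± 5.90 on CMT-U309 Sca1+ and was not detected on either Sca1- array. All 40 of its spots were well above background on CMT-U27 Sca1+, 26 of 40 on CMT-U309 Sca1+, and 0 and 1 of 40 on the Sca1- arrays. On the scaled log2 values it lay at -0.30 on CMT-U27 Sca1+ and at -6.10 on CMT-U309 Sca1+, and the lowest signal well above background on the Sca1- arrays averaged -5.39. CMT-U309 Sca1+ was thus not above that bound, and the array that was above it is the one whose detection chose the members, so no fold or p is given. miR-489 entered the tested miRNAs through its detection on the 2 Sca1+ arrays. The rank was 8 on CMT-U27 Sca1+ and 37 on CMT-U309 Sca1+. miR-489 was also detected, at 133, on the CMT-U27 Sca1- array that the comparison leaves out.

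miR-371, of a cluster active in pluripotent cells, was detected on the CMT-U27 Sca1+ array alone, at 99.4 ± 6.97 (scanner error). All 40 spots of its 3 probes were well above background there, against 0, 0 and 2 of 40 on the other 3 arrays. It was not tested, as it was detected on fewer than 2 of the arrays, and no fold is given because the bound as scaled is below 1. Whether the probe shown is complementary to a mature miR-371 arm or has its sense was not settled, so the signal is that of the probes the files name miR-371. Of the 6 pluripotency miRNAs on the array it was the only one detected on any of the 4 arrays.

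miR-223, a myeloid miRNA, read between 59.6 and 80.9 on all 6 arrays of the series, whatever the array's summed signal. Its signals were 65.7 on CMT-U27 Sca1+, 69.5 on CMT-U309 Sca1+, 80.9 on CMT-U309 Sca1- and 70.9 on P114 Sca1-, and 59.6 and 61.2 on the 2 arrays left out. Its ranks were 16 and 34 against 36 and 35, so that CMT-U27 Sca1+ stood apart from the other 3 arrays. The log2 difference was 1.75 (SE 1.66, limma adjusted p 0.692), and without CMT-U27 Sca1+ it was -0.41 relative to the median member. miR-149 also read alike on both Sca1+ arrays, 39.7 and 45.1, and on those left out, 38.6 and 33.5, and was brighter on the Sca1- arrays, at 107.2 and 79.2. Its log2 difference of 0.37 (SE 1.54) covers 2 Sca1+ arrays on either side of the Sca1- arrays.

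The miR-17 cluster and its paralogues promote cell cycle entry, in part by repressing p21. Of 14 listed on the array, 7 were members, 10 were tested and 0 were called. All 7 lay above 0, from 0.42 for miR-106a to 1.06 for miR-19a, with a median log2 difference of 0.92. Over the members 23 of 38 lay above 0, with a median of 0.25. Over all tested it was 41 of 91, with a median of -0.18. The non-members tested were undetected on CMT-U27 Sca1+ by construction, so the values over all tested are no baseline for members. All 7 were also above the median member with quantile scaling. Scaling over all probes shifts each array by a constant and so cannot change this count. The count was 5 of 7 with normexp and 6 of 7 with the mean of all probes. It was 5 of 7 without CMT-U27 Sca1+ and 6 of 7 without P114 Sca1-. With all 6 arrays it was 4 of 7 grouped by scanner file and 5 of 7 by value table.

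Within that group the probes of miR-106b, miR-93 and miR-25 map to 1 cluster. Their log2 differences ran from 0.63 to 1.04, inside the range of the 7. miR-106b read 41.7 and 766 on the Sca1+ arrays against 337 and 316, and ranked 18 on both Sca1+ arrays against 26 and 23. Its log2 difference was 1.04 (SE 0.33, limma adjusted p 0.497), and with all 6 arrays grouped by scanner file it was -1.09 relative to the median member. miR-25 read 12.4 and 290 against 141 and 115, with a log2 difference of 1.04 (SE 0.34, limma adjusted p 0.497). Relative to the median member it kept its direction in 18 of 18 alternatives, some of which could not move it. On CMT-U27 Sca1+, 3 of the 40 miR-25 spots were well above background. Its scaled log2 value there, -2.47, lay below the lowest signal well above background on that array, -2.02. miR-93 had a difference of 0.63 (SE 0.36). miR-19a of the miR-17 cluster proper read 67.9 and 791 against 430 and 375 and differed by 1.06 (SE 0.40, limma adjusted p 0.532). Of the 7, miR-106b and miR-19a alone did not overlap in rank among the 39 miRNAs. miR-92a read 26.3 and 273 against 225 and 166, miR-20a 78.4 and 775 against 820 and 528, and miR-106a 35.6 and 399 against 417 and 269.

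The 7 miRNAs of this group held 8.76% and 6.78% of the members' signal on the Sca1+ arrays against 4.11% and 3.09% on the Sca1- arrays. The difference of 4.17 percentage points had an exact two-sided permutation p of 0.333, the smallest possible, and the fractions did not overlap.

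The miR-23 and miR-27 miRNAs, processed with miR-24 from a pair of clusters, are known for roles in blood vessel growth and lipid metabolism. Of the 5 listed, 4 were members and 0 were called. All 4 were lower on both Sca1+ arrays in rank and in log2 value. Of the 91 miRNAs tested, 19.8% lay below on both by percentile rank and 24.2% by scaled log2 value. The shown probes of miR-23a and miR-23b differ in 1 base, as do those of miR-27a and miR-27b. The 4 may therefore not be separate observations, which was not tested. The median log2 difference of the 4 was -0.77. All 4 stayed below the median member in every alternative that was fitted, though some alternatives could not move these values.

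miR-23a, the third brightest on the Sca1+ arrays, read 232 and 4516 against 4837 and 5470, with a log2 difference of -0.50 (SE 0.36). miR-27a read 128 and 1855 against 2927 and 2786, ranking 5 and 7 against 4 and 4. The wider gaps were in the paralogues. miR-23b read 32.8 and 1438 against 1854 and 1864 (ranks 22 and 9 against 7 and 6), with a log2 difference of -0.90 (SE 0.48). miR-27b read 21.7 and 953 against 1630 and 1473 (ranks 30 and 14 against 8 and 9) and differed by -1.23 (SE 0.46, limma adjusted p 0.532). Together the 4 held 12.8% and 15.7% of the members' signal on the Sca1+ arrays and 17.3% and 17.96% on the Sca1- arrays, without overlap (difference -3.37 percentage points, exact permutation p 0.333).

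miR-221 and miR-222 repress the cell cycle inhibitor p27 and, in breast cells, the oestrogen receptor. miR-221 read 29.6 and 175 on the Sca1+ arrays against 746 and 667, and ranked 25 and 32 against 15 and 16. Its log2 difference was -1.25 (SE 0.78, limma adjusted p 0.692). It stayed below the median member in 18 of 18 alternatives, some of which could not move it. miR-222 read 13.3 and 118 against 346 and 251 and ranked 34 and 33 against 24 and 27. Its difference was -0.69 (SE 0.74), and with normexp it lay 0.0057 above the median member. On CMT-U27 Sca1+, 7 of the 40 miR-222 spots were well above background. On the scaled log2 values CMT-U309 Sca1+ was the lowest of the 4 arrays for both, and for miR-222 CMT-U27 Sca1+ overlapped the Sca1- arrays.

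The let-7 family, which represses RAS and HMGA2, did not separate the fractions. Of 8 listed on the array 5 were members, 7 were tested and 0 were called. let-7a read 126 and 4537 on the Sca1+ arrays against 3025 and 3389, and let-7f read 96.5 and 3452 against 2222 and 2207. let-7b read 29.7 and 2406 against 1355 and 1550, so that CMT-U309 Sca1+ was the highest of the 4 arrays in each. let-7c, at 11.9 and 999 on the Sca1+ arrays and 486.7 on P114 Sca1-, and let-7g, at 35.1 and 696 against 402 and 361, followed the same order. Of the 40 let-7c spots, 4 were well above background on CMT-U27 Sca1+. On the scaled log2 values let-7g alone of the 5 lay above on both Sca1+ arrays, at -1.61 and -1.39 against -2.04 and -2.07. Of the 91 miRNAs tested, 22% did so. The 5 members held 9.28% of the members' signal on CMT-U27 Sca1+ and 21.7% on CMT-U309 Sca1+, on either side of the 11.5% and 12.4% of the Sca1- arrays (exact permutation p 1.0). Their median log2 difference was -0.18, with 1 above 0 and 4 below, and without CMT-U27 Sca1+ all 5 lay above the median member. Without CMT-U309 Sca1+ 4 lay below it and 0 above, with a median of -1.16 relative to it.

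**Figure D4:**
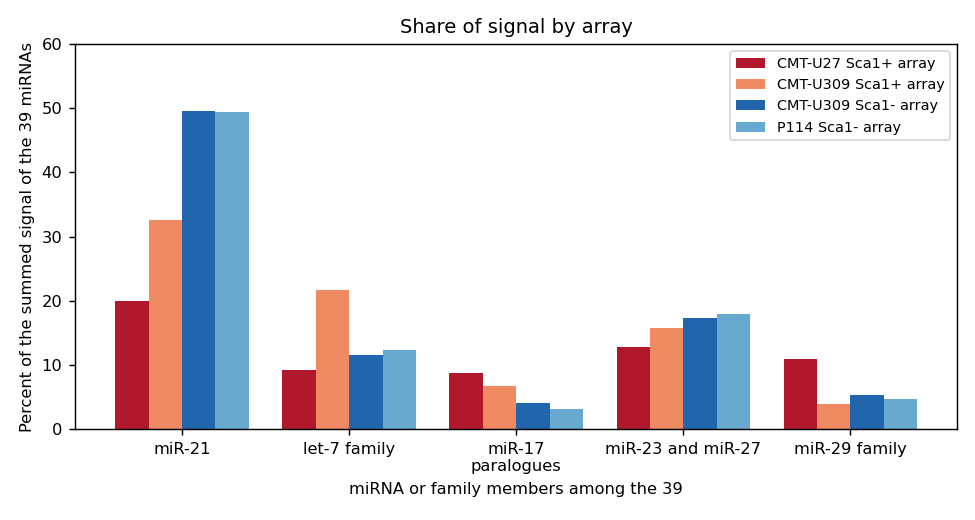
Percent of the summed signal of the 39 miRNAs held by miR-21 and by members of 4 groups, one bar per array from 0. miR-21 takes 20.02% and 32.6% on the Sca1+ arrays against 49.5% on each Sca1- array, while the let-7 share lies on both sides of the Sca1- arrays.

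The miR-29 family represses collagens and DNA methyltransferases. miR-29b read 200 and 1078 on the Sca1+ arrays against 1939 and 1735, and miR-29a read 126 and 865 against 1313 and 1069. miR-29c was dimmer, at 27.8 and 280 against 244 and 192. The 3 members, which are all of the family on the array, held 10.96% of the members' signal on CMT-U27 Sca1+ against 3.98% on CMT-U309 Sca1+ and 5.38% and 4.64% on the Sca1- arrays. The 2 Sca1+ arrays stood on either side of the Sca1- arrays (exact permutation p 1.0), and the median log2 difference was 0.05 with 0 called. Relative to the median member, 0 of the 3 lay above without CMT-U27 Sca1+ and 3 of 3 without CMT-U309 Sca1+.

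Among the remaining named members, miR-125b, a regulator of p53, read 103 and 1412 on the Sca1+ arrays against 1276 and 1148. It ranked 9 and 10 against 11 and 11, and its log2 difference of 0.20 was -0.05 relative to the median member and 0.075 above it with quantile scaling. miR-26a, which represses EZH2, read 10.4 and 392 against 342 and 270. Its ranks were 39 and 26 against 25 and 25, with CMT-U309 Sca1+ next to the Sca1- arrays and CMT-U27 Sca1+, where it was the dimmest member, apart from them. On CMT-U27 Sca1+, 0 of the 40 miR-26a spots were well above background. Its log2 difference was -0.21, or 0.061 above the median member with normexp and 0.054 above it without CMT-U27 Sca1+. miR-365 read 28.7 and 383 against 423 and 524, ranked 26 and 27 against 20 and 18, and differed by -0.37. Of its 40 spots, 9 were well above background on CMT-U27 Sca1+. Its scaled log2 value there, -2.26, lay below the lowest signal well above background on that array, -2.02.

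For the other lists, counts of members and medians of the log2 difference were as follows, with 0 called in each. miR-15b and miR-16, members of a family that represses cyclins and BCL2, had a median of 0.34 for 2 of 7 on the array (58.0 and 1352 against 722 and 786 for miR-15b, and 69.7 and 1595 against 1189 and 872 for miR-16), with miR-15b at -0.0029 relative to the median member under quantile scaling. miR-103 and miR-107, whose longest probes of 18 bases (not shown) match over the 16 that align and differ in their ends, had a median of 0.55. miR-107 read 16.2 and 448 against 203 and 183, with a percentile rank difference of 14.8 (limma adjusted p 0.235, with miR-25 the smallest of the members). On CMT-U27 Sca1+, 9 of the 40 miR-107 spots were well above background. miR-103 read 10.97 and 450 against 275 and 242, with 2 of its 40 spots well above background on CMT-U27 Sca1+. The miR-30 family had 1 member of 5 (miR-30d, -0.07), miR-10, miR-99 and miR-125 1 of 6 (miR-125b), miR-26 1 of 2 (miR-26a), the miR-130, miR-148 and miR-301 group 1 of 7 (miR-130a, 0.51), and the stem cell list 4 of 7 (miR-489, miR-221, miR-222 and miR-22), 2 above 0 and 2 below. No miR-181, miR-191 or miR-425 was a member. miR-22, which represses HDAC4, read 78.4 and 583 against 696 and 839. miR-197 and miR-874, held by no list, read 23.7 and 65.3 against 87.3 and 46.8, and 14.9 and 36.04 against 25.3 and 34.3, each with overlapping ranks.

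Paired by the lines of the value table (CMT-U27 Sca1+ with the CMT-U309 Sca1- array, and CMT-U309 Sca1+ with P114 Sca1-), 15 of 37 miRNAs were higher in Sca1+ in both pairs, 8 were lower in both and 14 went in opposite directions. By scanner file the only pair is CMT-U309, in which 20 were higher in Sca1+ and 17 lower. The scaling sets where 0 lies, and the share over all 91 tested miRNAs was not counted. These counts describe the members and support nothing further. With the value-table line as a replicate block limma called 0 of 91 on log2 values (4 below 0.05 unadjusted, smallest adjusted p 0.591) and 0 on ranks (smallest adjusted p 0.557).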

How the data were processed

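Total RNA of 6 sorted fractions was read on 6 arrays of 1 slide, and 4 were compared. Deposited scanner files hold the intensity of each spot, made with Agilent Feature Extraction 10.10.1.1 per the file headers (10.7.3.1 per the submitters' processing notes), background-subtracted, spatially detrended and not scaled between arrays. They also give total gene signal (an intensity, set to 0.1 where not detected), its error and detection flags. The authors' deposited matrix of intensity covers 311 features, and each of its columns equalled a scanner file within a relative tolerance of 0.0001. Labels name Cy5, while files hold a single green channel; this was not settled.

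Spots not above 0 took the lowest positive intensity on their array. Spots flagged as outliers and controls were left out, spots were averaged as log2 intensity per probe, and a miRNA took its brightest probe. Each array was centred on its 75th percentile over probes well above background on all 4 arrays. miRNAs detected on at least 2 of the 4 arrays were tested with limma 3.58.1 in R 4.3.3 (the package data.table, version 1.17.8; tables with Python 3.11.15, pandas 2.3.3 and scipy 1.17.1), with a Benjamini-Hochberg threshold of 0.05. The limma steps were tested on simulated data with the same spread on every array. The real arrays differ in spread, so that test does not show how limma behaves on them. The number of arrays limits the precision. Alternatives were other backgrounds, scalings, floors, filters and probe summaries, each array left out, a line block, and all 6 arrays. Described in full were the 10 brightest members on CMT-U27 Sca1+, members undetected on another array, and up to 10 members with the largest non-overlapping rank differences; the rest are given by list. Members and lists were chosen with earlier results of these data known.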

Additional observations from a re-analysis of the deposited data

Results flagged for a closer look

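miR-489 had a signal of 132.831 on the CMT-U27 Sca1- array, which the comparison leaves out because the value table assigns it to CMT-U309 Sca1+. This is above both Sca1- arrays of the comparison, where miR-489 was not detected. All 40 of its spots were well above background on that array, with a mean of 50.6 ± 6.36 (SD over 20 spots) for its brightest probe, against 41.5 ± 5.63 on CMT-U27 Sca1+. The array detected 22 miRNAs in all.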

How the results depend on the processing

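The test on log2 values was repeated under 18 alternatives and that on ranks under 12. limma called 0 miRNAs in most. On log2 values it called 56 of 91 with a normexp background, which adds an offset of 50 to every spot (55 higher and 1 lower in Sca1+). It called 2 with quantile scaling and 3 with a linear mean of spots (an alternative chosen after seeing the data), all lower. On ranks it called 2, both lower, where the brightest probe was ranked. Leaving out each array in turn gave 0 to 53 calls on log2 values and 0 to 17 on ranks, with 53 and 17 without CMT-U309 Sca1+ and 0 without either Sca1- array. The replicate block by value-table line changed no call, with 0 on both scales. The labels give no replicate numbers. The cause of these differences was not tested.

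Relative to the median member, these log2 differences changed sign. With normexp they were -0.15 for miR-15b, 0.0057 for miR-222 and 0.061 for miR-26a. With quantile scaling they were 0.0082 for miR-21, whose own difference is fixed at 0 there because it is the brightest on every array, 0.075 for miR-125b and -0.0029 for miR-15b, and with the mean of all probes 0.13 for miR-125b. Leaving out each array in turn gave -0.41 (without CMT-U27 Sca1+) to 3.34 for miR-223, -1.06 to 0.054 (without CMT-U27 Sca1+) for miR-26a, and -0.24 (without CMT-U309 Sca1+) to 0.48 for miR-15b. With all 6 arrays by scanner file they were -0.93 for miR-19a, -0.44 for miR-15b, -1.09 for miR-106b, -0.46 for miR-130a, 0.064 for miR-365, -0.24 for miR-29c, -0.14 for miR-92a and 0.54 for miR-222. With all 6 arrays by value table they were 0.48 for miR-125b, -0.017 for miR-93 and 2.16 for miR-26a. The 2 arrays added in those fits detected 22 and 9 miRNAs. On the dim CMT-U27 Sca1+ array, 16 of the 39 miRNAs had a signal below 30, which limits what can be said of their ranks.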
